A study of Mus musculus with 6 samples.

Results

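The receptors described here are 73 of the 1119 rows of the deposited olfactory receptor sheet, those with symbols from Olfr469 to Olfr539 or from Olfr694 to Olfr714. These numbers were given along mouse chromosome 7, and 73 of the 92 numbers had a row, 56 in the lower block and 17 in the upper one. All 73 were placed on chromosome 7 in the RefSeq gene table. Their names in the MOR scheme, which sorts mouse receptors into families by protein likeness, put 71 of them in class II. The remaining 2, Olfr503 (family MOR34) and Olfr504 (family MOR40), carried family numbers below 100, which belong to class I, so for these 2 the label class II did not hold.

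Class I receptors resemble those of fish and lie mainly in one cluster on chromosome 7, whereas class II receptors, the larger group of land vertebrates, lie in many clusters over most chromosomes. Both are G protein-coupled receptors that bind odorants on the cilia of olfactory sensory neurons. Each neuron transcribes a single receptor allele, so the transcript level of a receptor in whole mucosa depends on how many neurons chose it and on how much of its RNA each holds.

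The study compared the closed with the open nostril of mice in which airflow through 1 nostril was blocked. The closed group was whole olfactory mucosa from the closed nostril of 3 wild-type C57BL/6 mice at postnatal day 11, and the open group was the mucosa of the open nostril of the same 3 mice. No unoperated mouse was among the 6 libraries, and no label says when the nostril was closed or for how long. The labels name no transgene or other treatment. In such bulk tissue, fewer neurons of a kind and less RNA per neuron cannot be told apart.

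Levels are FPKM, fragments per kilobase of transcript, scaled to the mapped fragments of the library. The closed libraries had 24958172 to 39595257 reads and the open ones 33945264 to 43584803, of which 93.28% to 96.99% were aligned, with an RNA integrity number of 10 throughout. Whole fragments could be read back for receptors whose RefSeq model has 900 to 1100 bases, 903 of the 1119 rows, of which 879 gave whole numbers within 0.05 in all 6 libraries. Among the 64 members of such length, 63 did so. The 9 longer members, Olfr536 and Olfr711 among them, have no fragment numbers here. For a model of the length of Olfr469, 1 fragment was worth 0.073, 0.0416 and 0.0504 FPKM in closed libraries 1, 2 and 3, against 0.0405, 0.0521 and 0.0389 FPKM in open libraries 1, 2 and 3. The median member of the 63 then held 15, 19 and 27 fragments in the closed libraries and 28, 17 and 32 in the open ones. Closed library 1 was thus the coarsest, and small differences between low members amount to a few fragments.

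The receptors as a group were low and uneven in level. Over the 6 libraries the median member had a mean of 1.10 FPKM (quartiles 0.643 and 1.82), against 1.49 FPKM (quartiles 0.769 and 2.48) for the 1046 other receptor rows. A mean of at least 1 FPKM was reached by 43 of the 73 members (58.9%) and by 697 of the other rows (66.6%). The class I receptors of chromosome 7 (120 rows) had a median of 1.83 FPKM, and the 40 class II rows of chromosome 7 outside these numbers one of 2.65 FPKM. Genes are not replicates, so these levels are given with no test.

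The sum was held by few members. Olfr536 and Olfr533 made up 20.6% of the summed level of the 73 members and the 10 highest members 45.4%. Olfr536 ranked 2 and Olfr533 ranked 9 among all 1119 receptor rows. Olfr536, a receptor of family MOR252, had 13.4, 17.02 and 19.4 FPKM in closed libraries 1, 2 and 3, against 23.0, 10.3 and 13.6 FPKM in the open libraries. Its sides overlapped fully, with the lowest and the highest value both on the open side. Olfr533, of the same family, had 10.3, 9.91 and 12.1 FPKM in the closed libraries and 11.1, 5.50 and 9.62 FPKM in the open ones, where open library 2 stood lowest. Olfr711 (family MOR103) followed with 5.84, 5.34 and 7.78 FPKM in the closed libraries and 6.05, 2.40 and 4.34 FPKM in the open ones.

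**Figure D1:**
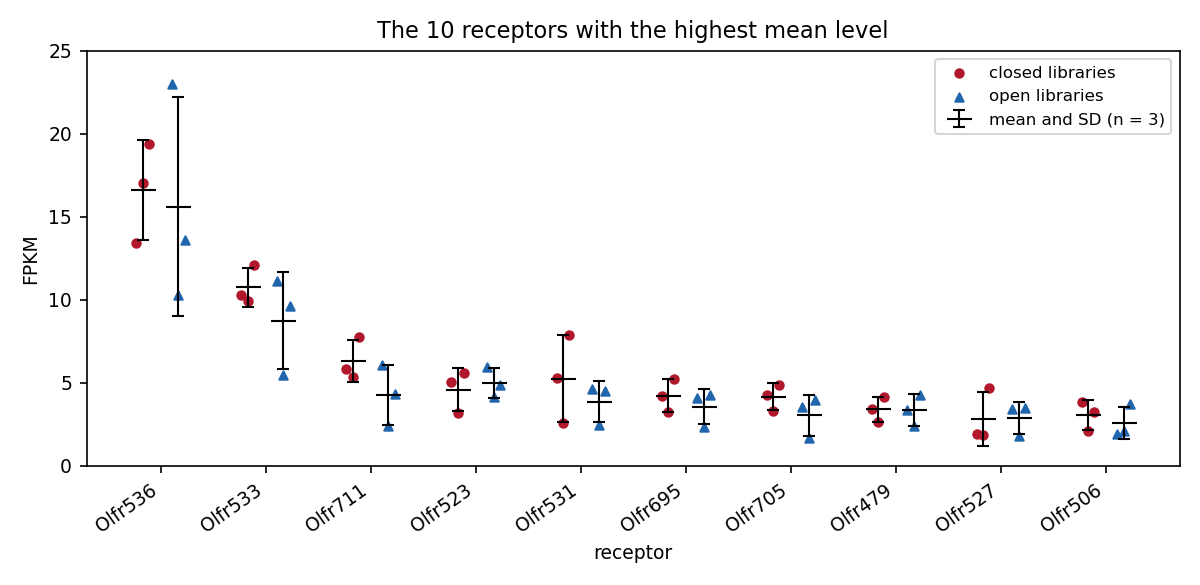
FPKM of the 10 members with the highest mean over the 6 libraries, from Olfr536 on the left to Olfr506 on the right, with closed libraries as red circles left of open libraries as blue triangles and bars for the mean and SD (n = 3). Sides overlap in each of the 10, and Olfr536 spans 10.3 to 23.0 FPKM within the open libraries alone.

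Below these, Olfr523 (family MOR104) averaged 4.60 ± 1.27 FPKM on the closed and 4.98 ± 0.908 FPKM on the open side. Olfr531 (MOR251) averaged 5.26 ± 2.64 FPKM on the closed and 3.87 ± 1.24 FPKM on the open side, and Olfr695 (MOR283) 4.24 ± 1.004 FPKM on the closed and 3.57 ± 1.06 FPKM on the open side. For Olfr705 (MOR283) the means were 4.16 ± 0.806 FPKM closed and 3.05 ± 1.22 FPKM open. Olfr479 (MOR267) had 3.41 ± 0.760 FPKM closed and 3.34 ± 0.958 FPKM open, Olfr527 (MOR251) 2.81 ± 1.63 FPKM closed and 2.90 ± 0.968 FPKM open, and Olfr506 (MOR204) 3.07 ± 0.913 FPKM closed and 2.58 ± 0.975 FPKM open. Each is a mean ± SD of 3 libraries, and none of these differences was past the test described further on. From Olfr711 down, the means of neighbours in this order differed by less than their SD.

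At the other end, 4 members had a mean under 0.1 FPKM. Olfr504 was listed at 0 in all 6 libraries, which allows a share of up to 0.00141% of the 212080 fragments of the receptors whose values came out whole (3 fragments, counting error only). Olfr503, which is also a class I receptor by family, rested on 3 fragments, 1 in closed library 1 and 1 each in open libraries 2 and 3. Olfr514 (MOR268) rested on 2 fragments in closed library 3 and 1 in open library 1, and Olfr474 (MOR204), the lowest member above 0, on 1 fragment each in closed libraries 1 and 2. None of these 4 was tested, and with so few fragments no side can be called higher.

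Levels differed between stretches of the chromosome. The members lie in 4 stretches in the reference order. Olfr520 and Olfr521 come first, followed by Olfr694 to Olfr714 (17 members), Olfr469 to Olfr519 (41 members) and, far from the others, Olfr522 to Olfr539 (13 members). The median level was 0.510, 1.19, 1.07 and 2.10 FPKM in this order. The last stretch held 5 families, among them MOR251, MOR252 and MOR253, and 11 of its 13 members reached 1 FPKM, as did 10 of 17 and 22 of 41 in the middle stretches and neither of the first pair. All 4 members under 0.1 FPKM lay in the stretch from Olfr469 to Olfr519, which also holds the largest family, MOR204, with 30 members, a median of 1.07 FPKM and none above 2.83 FPKM. Most models here cover about the coding length alone, and 9 are longer.

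**Figure D2:**
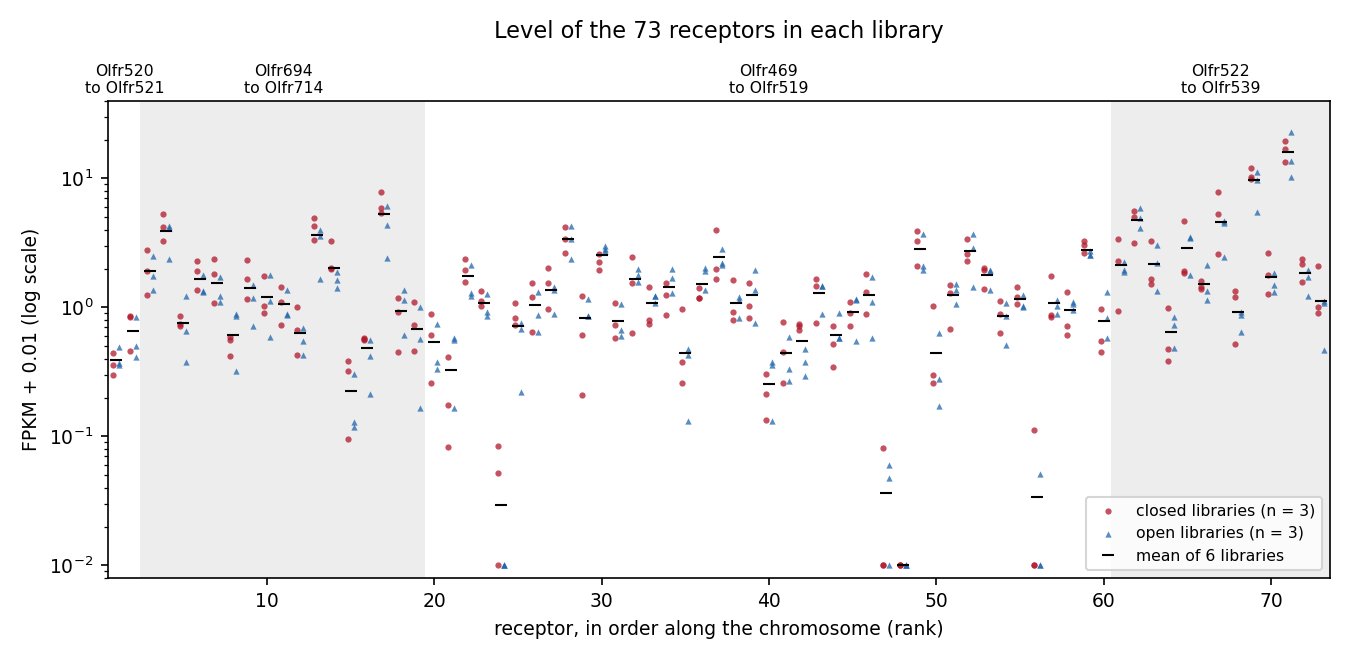
FPKM + 0.01 on a log axis for the 73 receptors in their order along the chromosome, with closed libraries (red circles) left of open libraries (blue triangles), black bars for the mean of 6 libraries and grey shading to separate the 4 stretches. The highest levels, Olfr533 and Olfr536, lie near the right end, and the members at or near 0 lie in the stretch from Olfr469 to Olfr519.

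Olfr536 differed from most members in the letters ahead of its start. Receptor promoters are known to carry homeodomain sites and sites for O/E (Ebf) factors, so TAATNA and CCCNNGGG were searched on both strands of the 250 bases before each RefSeq start (a CCCNNGGG match reads the same way on either strand, and neither motif contains the other). TAATNA was found in 42 of 67 member windows (62.7%), in 64.0% of the other receptors' windows and in 24.3% of all promoters, and CCCNNGGG in 4 of 67 (5.97%), 2.42% and 11.8%. Where the model is of coding length, the window lies before the coding start and need not be the promoter. For models over 1100 bases, such as that of Olfr536, TAATNA was found in 5 of 8 member windows and in 64.5% of the other receptors' windows. CCCNNGGG was found there in 2 of 8, those of Olfr536 and of the low member Olfr710 (mean 0.474 FPKM), and in 9.47%. The windows of Olfr711 and Olfr524 held neither motif, and a link of motif with level was not tested. Among the 8 longer models with a window, Olfr536 and Olfr695 are shown because they are high members of different stretches that hold different motifs (RefSeq, GRCm38.p6, minus strand, 5′ to 3′, motif matches in capitals). The Olfr536 window, chr7:140507319-140507568, held 2 CCCNNGGG matches and no TAATNA, and the Olfr695 window, chr7:106716346-106716595, held 1 TAATNA match and no CCCNNGGG. A match is a description of letters and not a bound site.
Olfr536: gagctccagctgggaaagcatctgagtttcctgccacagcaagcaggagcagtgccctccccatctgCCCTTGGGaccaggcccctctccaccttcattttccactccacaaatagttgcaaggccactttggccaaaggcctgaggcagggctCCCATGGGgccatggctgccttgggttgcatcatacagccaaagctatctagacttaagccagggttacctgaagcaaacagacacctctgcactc
Olfr695: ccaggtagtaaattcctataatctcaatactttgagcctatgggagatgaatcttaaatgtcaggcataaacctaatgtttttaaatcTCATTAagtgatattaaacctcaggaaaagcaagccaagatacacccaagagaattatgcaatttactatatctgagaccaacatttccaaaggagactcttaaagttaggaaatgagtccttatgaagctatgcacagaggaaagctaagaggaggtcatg

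No receptor of the group was past the test for a difference between closed and open sides. On log2(FPKM + 0.1), limma tested the 69 members with a mean of at least 0.1 FPKM together with all other rows, 17987 in all, and called 0 of the 69 at an adjusted p under 0.05, with the lowest adjusted p at 1. Over all rows 0.0334% were called, 0.00556% higher and 0.0278% lower on the closed side. At an unadjusted p under 0.05, limma had 1 member, Olfr494, beside 29 of the 1016 other receptors tested and 1.75% of all rows. With the mouse as a block, limma again called 0 (0.0278% of all rows) and had 5 at an unadjusted p under 0.05 (Olfr494, Olfr701, Olfr706, Olfr711 and Olfr705, all with positive log2 changes, and the last 4 from the stretch Olfr694 to Olfr714), beside 2.68% of all rows. The blocked count of the other receptors is not given here, so these 5 show nothing particular to the members. The 95% intervals of single members were wide, since the median standard error (SE) of a log2 change was 0.32. The block lowered the SE in places, for Olfr701 to 0.20 from 0.33 without it.

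The log2 changes, closed minus open, ran from -0.75 to 0.77 with a median of 0.14, and 45 of the 69 lay above 0. Over the 1016 other receptors tested the median was 0.09, with 62.5% above 0, and over all rows tested it was -0.01. Sides did not overlap in 4 members. Closed values all lay above open ones in Olfr494, Olfr706 and Olfr710 (4.35%, against 1.52% of all rows and 3.44% of other receptors), and all below in Olfr481 (1.45%, against 2.56% of all rows and 1.48% of other receptors). Olfr710 is named here after its values were seen. Its sides were barely apart, with a lowest closed value of 0.553 FPKM and a highest open value of 0.549 FPKM. Closed exceeded open in 3 of 3 mice for 18 members (26.1%, against 17.6% of other receptors and 7.73% of all rows) and was lower in 3 of 3 mice for 5 (7.25%, against 5.91% of other receptors and 10.1% of all rows). The median within-mouse difference of the members was 0.04, 0.05 and 0.21 in mice 1, 2 and 3.

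The small median rested on single libraries. It was -0.03 without closed library 3, -0.06 without open library 2 and 0.27 without closed library 2. The median of the other receptors moved alike, to -0.05, -0.03 and 0.22 in this order. The same libraries stood apart in their receptor RNA as a whole. All 1119 rows summed to 2154, 1844 and 2703 FPKM in closed libraries 1, 2 and 3 and to 2185, 1695 and 2314 FPKM in the open ones, so that closed library 3 was highest and open library 2 lowest. The 9 listed markers of mature olfactory sensory neurons summed to 5766, 5284 and 6062 FPKM in the closed libraries and to 5621, 4033 and 4718 FPKM in the open ones, with closed library 3 again highest and open library 2 lowest. All 9 had a log2 change above 0 (median 0.26), with 0 called by limma and 1 at an unadjusted p under 0.05. The 6 listed gland markers summed to 381, 524.6 and 1165 FPKM in the closed and to 2627, 2006 and 3234 FPKM in the open libraries, with 6 of 6 below 0, 0 called and 4 at an unadjusted p under 0.05. Open library 2 had the highest sum of the 6 sustentacular markers, 5226 FPKM, against 3957 to 4094 FPKM in the closed and 3974 to 4156 FPKM in the other open libraries. The 6 neutrophil markers summed to 996.8, 891.5 and 438.6 FPKM in the closed and 520, 935 and 508.5 FPKM in the open libraries, with closed library 3 lowest. Of these 6 markers, 5 had a log2 change above 0, with 0 called by limma and 2 at an unadjusted p under 0.05. Ltf went the other way, with 81.6 ± 44.9 FPKM on the closed and 155.5 ± 65.2 FPKM on the open side (log2 change -1.01). The part of any of these cell types in the receptor values was not tested. As a share of all receptor FPKM, the members took 5.89%, 5.68% and 6.09% in the closed libraries and 6.33%, 5.13% and 5.77% in the open ones, or 5.89 ± 0.21% and 5.74 ± 0.60% (SD, n = 3 each). The difference in share, closed minus open, was -0.43, 0.55 and 0.32 percentage points in mice 1, 2 and 3.

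The largest positive t among the members was that of Olfr494 (family MOR204). It had 0.730, 0.707 and 0.655 FPKM in closed libraries 1, 2 and 3, against 0.284, 0.365 and 0.467 FPKM in the open ones. All 3 closed values lay above all open ones, on 10, 17 and 13 fragments in the closed libraries and 7, 7 and 12 in the open libraries. The log2 change was 0.77 (SE 0.26, 95% interval 0.19 to 1.36, limma adjusted p = 1, higher in 3 of 3 mice). Olfr706 (MOR283) had 1.96, 2.02 and 3.25 FPKM in the closed libraries, against 1.61, 1.396 and 1.85 FPKM in the open ones, again with no overlap, for a log2 change of 0.52 (SE 0.24, 95% interval -0.04 to 1.07). Olfr711 had a log2 change of 0.63 (SE 0.31) and Olfr701 (MOR283) one of 0.56 (SE 0.33), on 1.64, 1.15 and 2.30 FPKM in the closed and 1.16, 0.706 and 1.49 FPKM in the open libraries, where the sides overlapped but each mouse was higher on the closed side. Open library 2 carried much of both. Without it the log2 change was 0.28 for Olfr711, 0.29 for Olfr701 and 0.13 for Olfr705, against 0.42 for Olfr706 and 0.77 for Olfr494.

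The largest negative t was that of Olfr487 (MOR204), with 1.17, 1.16 and 1.41 FPKM in closed libraries 1, 2 and 3, against 1.91, 1.36 and 2.03 FPKM in the open ones. Each of 3 mice had less of it on the closed side, and its log2 change was -0.45 (SE 0.22, 95% interval -0.97 to 0.06, limma adjusted p = 1). Olfr481 (MOR204) had 2.58, 2.22 and 1.93 FPKM in the closed libraries, against 2.74, 2.99 and 2.83 FPKM in the open ones, with no overlap and a log2 change of -0.34 (SE 0.18). Olfr485 (MOR204) had a log2 change of -0.42 (SE 0.27), on 0.866, 1.23 and 1.54 FPKM in the closed and 1.68, 1.29 and 1.96 FPKM in the open libraries. Olfr480, also of MOR204, had 0.198, 0.599 and 1.23 FPKM in the closed and 0.840, 0.845 and 1.16 FPKM in the open libraries, and closed library 1, with 3 fragments, was the lowest. Its log2 change was -0.67 (SE 0.49), and -0.11 without that library.

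Changes of neighbours can be read along the chromosome. Of the 8 neighbours Olfr480 to Olfr487, 6 had a log2 change below 0, the exceptions being Olfr482 (0.03) and Olfr486 (0.47). This run was picked after its values were seen and is a description. Of the 13 members below -0.25, 11 lay in the stretch Olfr469 to Olfr519 and 2 in Olfr694 to Olfr714 (Olfr713 at -0.29 and Olfr700 at -0.25, named after their values were seen). The stretch Olfr469 to Olfr519 held 37 of the 69 tested members. Of the 22 above 0.25, 10 lay in the stretch Olfr694 to Olfr714, where 15 of 17 members were above 0 and the median was 0.31, beside 0.04 in Olfr469 to Olfr519 and 0.15 in Olfr522 to Olfr539. Within mice 1, 2 and 3 the median difference in Olfr694 to Olfr714 was 0.12, 0.45 and 0.33. This stretch summed to 29.8, 23.8 and 39.6 FPKM in closed libraries 1, 2 and 3. In the open ones it summed to 28.8, 15.9 and 29.1 FPKM, with open library 2 lowest. Olfr713 and Olfr714 in that stretch are P3 and P4 in older naming, members of the P receptor group whose relative P2 has been used to follow receptor-specific axons to the olfactory bulb. Olfr714, next to Olfr713, had a log2 change of 0.52 (SE 0.53). The 95% intervals of both included 0. By family, 10 of 11 tested receptors of MOR283 had a log2 change above 0 (median 0.26), against 16 of 29 of MOR204 (median 0.02), 3 of 5 of MOR268, 3 of 3 of MOR253 and 3 of 3 of MOR260. The counts by stretch and by family were not repeated without open library 2. Without it, among the named MOR283 members, Olfr695 had -0.01, against 0.29 for Olfr701, 0.13 for Olfr705 and 0.42 for Olfr706. All MOR283 members lie in the stretch Olfr694 to Olfr714, where 5 of the 6 receptors of other families were above 0 too, from 0.14 for Olfr702 to 0.63 for Olfr711. Olfr711 is of family MOR103, whose members in the last stretch had -0.06 (Olfr522) and -0.04 (Olfr524). These members are named after their values were seen, and the parts of family and position were not tested.

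**Figure D3:**
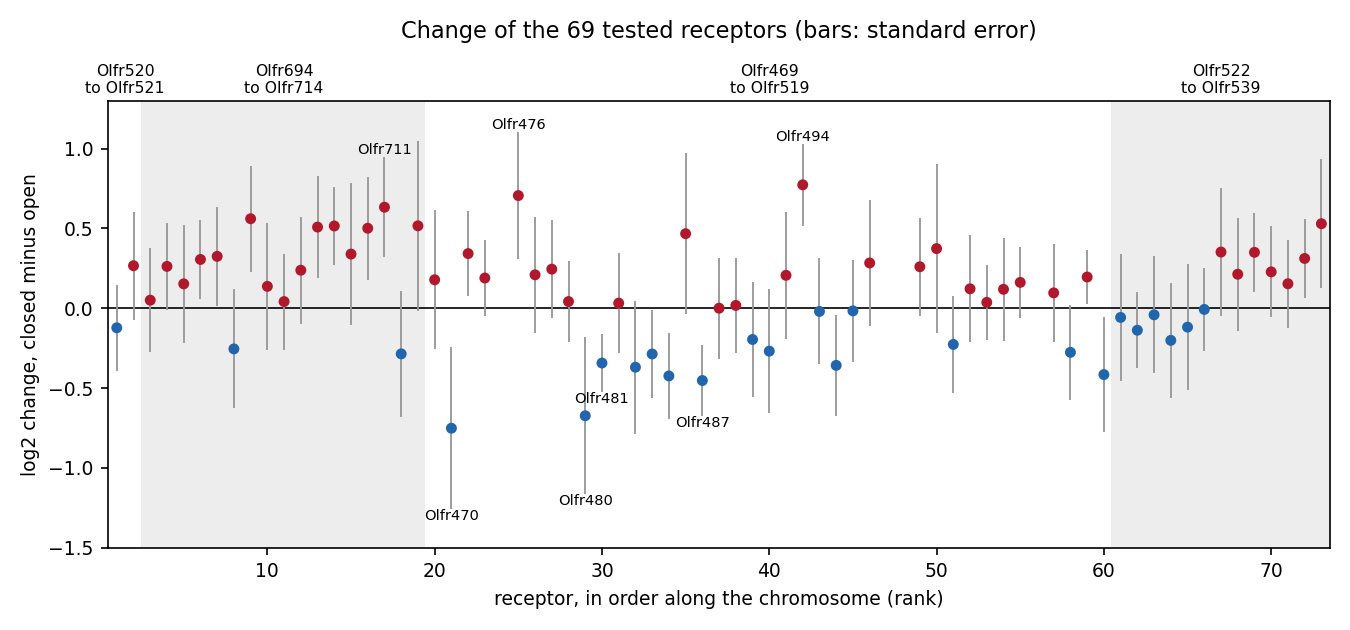
Log2 change, closed minus open, of the 69 tested receptors in their order along the chromosome, red above 0 and blue below, with bars for the standard error and grey shading to separate the 4 stretches. In the stretch Olfr694 to Olfr714, 15 of 17 points lie above 0, and no point of the 69 is past the limma test. The summed level of that stretch was lowest in open library 2 (15.9 FPKM).

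Some pairs are so alike that reads could be shared between them. Over 2628 pairs of coding sequences from GENCODE M21 the median identity was 78.2% within a family and 56.0% between families, and 3 pairs reached 95%: Olfr486 with Olfr487 (96.2%), Olfr469 with Olfr470 (95.9%) and Olfr476 with Olfr477 (95.2%). Reads were 51 bases long. Of the 73 members, 62 shared some run of 51 bases with a transcript of another gene and 32 shared more than 10% of theirs, with a median of 8.6%. Olfr707 shared 81.6% of its runs, most of them with Olfr1532-ps1, so its mean of 0.215 FPKM is uncertain. The 51 coding bases that differ most within each of the 3 closest pairs are shown, since fragments over such bases are those that tell the pair apart (5′ to 3′, differing bases in capitals, positions counted from the first base of the start codon). They are bases 646 to 696 of Olfr486 and Olfr487, with 8 differences, bases 45 to 95 of Olfr469 and Olfr470, with 9, and bases 232 to 282 of Olfr476 and Olfr477, with 12.
Olfr486: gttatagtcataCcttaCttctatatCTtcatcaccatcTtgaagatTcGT
Olfr487: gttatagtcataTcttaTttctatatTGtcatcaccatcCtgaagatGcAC
Olfr469: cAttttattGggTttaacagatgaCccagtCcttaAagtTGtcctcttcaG
Olfr470: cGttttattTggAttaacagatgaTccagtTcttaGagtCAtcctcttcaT
Olfr476: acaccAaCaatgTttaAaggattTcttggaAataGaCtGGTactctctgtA
Olfr477: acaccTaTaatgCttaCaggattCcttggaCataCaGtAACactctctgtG

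The values of each pair can be set side by side. Olfr486 had 5, 6 and 19 fragments in closed libraries 1, 2 and 3 and 3, 8 and 12 in the open ones. Its near copy Olfr487 had 16, 28 and 28 fragments in the closed and 47, 26 and 52 in the open libraries. The log2 change was 0.47 (SE 0.51) for Olfr486, against -0.45 (SE 0.22) for Olfr487, and 37.9% of the 51-base runs of Olfr486 were shared. Olfr470 had 0.0730, 0.166 and 0.403 FPKM in the closed libraries, against 0.568, 0.156 and 0.545 FPKM in the open ones, that is 1, 4 and 8 fragments against 14, 3 and 14. Its log2 change of -0.75 (SE 0.51) was the lowest of the 69 and rested on these few fragments, and Olfr469 had 0.18 (SE 0.44). Olfr476 had 11, 17 and 21 fragments in the closed and 18, 4 and 17 in the open libraries, with a log2 change of 0.71 (SE 0.40), against 0.21 (SE 0.36) for Olfr477. In Olfr476 open library 2, with 4 fragments, was far below the others. The differences within pairs were not tested.

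The spread between libraries of a side was close to counting error for many members. For 56 members with at least 15 fragments summed over the 3 libraries of each side, the variance within sides, relative to what counting alone gives after scaling to all receptor fragments, had a median of 1.29 (quartiles 0.85 and 2.40), against 1.84 (quartiles 1.07 and 3.24) for 754 other receptors. Ratios over 3 were found in 10 of the 56 members (17.9%) and in 211 of the 754 others, and among the members the highest were Olfr531 with 7.15, Olfr507 with 6.44 and Olfr533 with 5.95. The members also held lower levels than the other receptors, and the part of level in this difference was not tested. On log2(FPKM + 0.1) the order was the reverse. There the median SD within sides was 0.456 over the 69 tested members, against 0.427 over the 1016 other receptors tested. The log2 changes themselves were as spread among the members (SD 0.32 over 69) as among the other receptors (SD 0.32 over 1016).

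The members lay between their chromosome neighbours in direction. The class I receptors of chromosome 7 had a median log2 change of 0.01 over 117 tested, with 55.6% above 0, and the other class II receptors of chromosome 7 one of 0.25 over 39, with 84.6% above 0, beside 65.2% of the members. Within mice 1, 2 and 3 the median difference was 0.33, -0.42 and 0.02 for the class I receptors and -0.04, 0.43 and 0.42 for the other class II receptors, against 0.04, 0.05 and 0.21 for the members. None of the 3 groups held a called receptor. At an unadjusted p under 0.05, limma had 3 of the class I and 1 of the other class II receptors. The differences between groups were not tested, since genes of a library are not replicates.

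**Figure D4:**
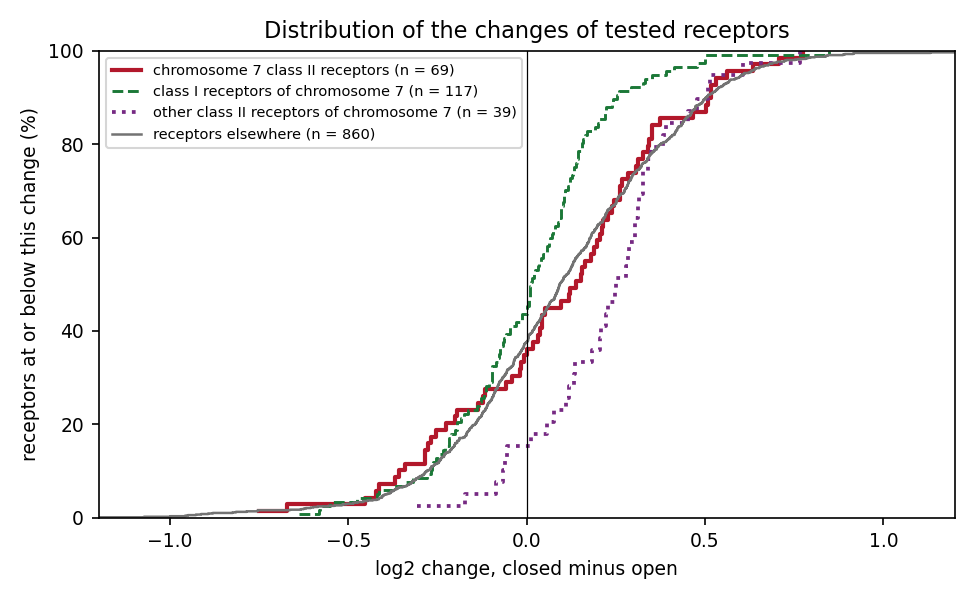
Cumulative percent of tested receptors (y axis) at or below a given log2 change, closed minus open (x axis), for the 69 members (red), 117 class I receptors of chromosome 7 (green dashes), 39 other class II receptors of chromosome 7 (purple dots) and 860 receptors elsewhere (grey). The red curve crosses 0 near the grey one, with medians of 0.14 and 0.09.

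Receptors signal through the olfactory G protein Gnal, adenylyl cyclase Adcy3 and the cyclic nucleotide-gated channel, and reach the cilia with the help of Rtp1, Rtp2 and Reep1. Of 21 genes of odor transduction and receptor trafficking, 0 were called in either direction (2 at an unadjusted p under 0.05 in limma, median log2 change 0.22). Their log2 changes were above 0 in 15 and below 0 in 6, the lowest at -0.21. The 9 markers of mature olfactory sensory neurons given earlier are all in this list, so the 2 lists are not separate results. The phosphodiesterase Pde4a averaged 88.8 ± 20.0 FPKM on the closed and 63.2 ± 8.07 FPKM on the open side (SD, n = 3 each, log2 change 0.47, SE 0.19). The chloride channel Ano2 averaged 77.9 ± 16.1 FPKM on the closed and 55.7 ± 11.6 FPKM on the open side (log2 change 0.49, SE 0.20), with log2 changes of 0.41 for the channel subunit Cnga4, 0.41 for Stoml3 of the cilia and 0.26 for the olfactory marker protein Omp. Of 23 regulators of receptor gene choice, 0 were called (0 at an unadjusted p under 0.05, median 0.04). The regulators with the largest t had log2 changes of -0.21 (the stress kinase Eif2ak3), 0.21 (the stress factor Ddit3), 0.16 (the transcription factor Ebf3) and 0.12 (the transcription factor Emx2).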

How the data were processed

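Each of the 6 libraries, 3 per side, has an FPKM value per gene as deposited by the authors. The submitters' processing notes name Cufflinks and mm9, but neither an aligner nor an annotation. The count of reads, the fraction of reads aligned (printed as percent), the RNA integrity score and the 28S over 18S ratio per library are as deposited. The 1119 receptor rows equalled their rows in the table of 24315 genes.

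All rows averaging 0.1 FPKM or more were fitted together on log2(FPKM + 0.1) with limma 3.58.1 in R 4.3.3 (eBayes with a trend), with Benjamini-Hochberg adjustment over all of them at 0.05. A fold change on this scale understates the change of low genes. The fit was tested on simulated data, with changes larger than any seen in a tested member. That simulation therefore does not show how often changes as small as those of the members would be called. Whole fragments were recovered from FPKM by the step that 1 fragment makes at each model length (RefSeq, GRCm38.p6), for lengths of 900 to 1100 bases. RefSeq and GENCODE M21 gave names, order and sequences only.

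A deposited sheet states that same-numbered libraries come from the same mouse. The deviations of such libraries from their side means correlated at 0.14, 0.10 and 0.17 for mice 1, 2 and 3 over all rows tested, against -0.12 to -0.03 for different mice. Over the members alone they correlated at -0.25, -0.09 and 0.29, against -0.29 to 0.35 for different mice. Over the other receptors tested they correlated at -0.18, -0.01 and 0.21, against -0.19 to 0.17 for different mice. Neither the members nor the other receptors thus showed the pairing that the sheet states. The fit has no block, and the blocked fit is given beside its counts. Named members are the 10 highest by mean, the 5 highest and 5 lowest by t, those at or near 0 and the closest pairs, and up to 4 genes by t of each pathway list. A rule on protein likeness was replaced by coding sequence identity, after the data were seen. The members and lists were chosen with earlier results of these data known. The p-values of the main fit set a difference between sides against the spread among the 3 libraries of a side, moderated over all rows. They make no use of the pairing within mice. Alternatives are given at the end.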

Additional observations from a re-analysis of the deposited data

How the results depend on the processing

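No member was called under any of the 15 alternatives of the fit, among them the replicate block, which also called 0, and 0 to 5 members had an unadjusted p under 0.05 in limma. With a pseudocount of 1 the SD of the members' log2 changes was 0.175, against 0.322 with 0.1. With a floor of 1 FPKM, 1 member had all closed values above all open ones. Centring each library on its median receptor gave 5 such members and 3 with all closed values below, a median log2 change of 0.040 and -0.06 for Olfr479. Restricted to members of at least 1 FPKM, the median level was 1.715 FPKM.

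Leaving out 1 library at a time gave 3 to 16 members with closed values all above and 1 to 10 with closed values all below, partly because fewer values must then be ordered. The matching shares of all rows are not given here for any alternative, so such counts show nothing particular to the members. The median log2 change was then -0.057 to 0.271, against -0.053 to 0.221 for the other receptors. The log2 change ranged from -0.11 to 0.47 for Olfr536, -0.29 to 0.11 for Olfr523, -0.00066 to 0.78 for Olfr531, -0.01 to 0.44 for Olfr695, -0.17 to 0.24 for Olfr479 and -0.55 to 0.10 for Olfr527. Among genes that kept their sign it ranged from 0.28 to 0.93 for Olfr711, 0.29 to 0.80 for Olfr701, 0.13 to 0.73 for Olfr705, 0.25 to 0.97 for Olfr476, -1.2 to -0.39 for Olfr470, -1.19 to -0.11 for Olfr480 and 0.18 to 0.60 for Cnga4. The cause was not tested. Of 407 values of named genes under the alternatives, 396 kept their direction and 11 did not. Part of the 396 was fixed in advance. The block, the robust form of eBayes, another floor and a fit of the receptor rows alone cannot move a log2 change. Low members rest on few fragments, which limits what 3 mice can show.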
